A study of Mus musculus with 78 samples.

Results

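At embryonic day 14 (E14), 6 of the 24 brain arrays had little signal from genes that mark the thalamus, midbrain, cerebellum and hindbrain, and more signal from genes of the cerebral cortex, than the other 18. The 6 arrays are replicates 2 and 3 of the wild type of mixed background A, replicate 1 of Lis1 ko/+, replicates 1 and 3 of Lis1 ko/cko and replicate 2 of 14-3-3 epsilon ko/ko, out of 78 arrays in the series. They were picked by title because their own values of hindbrain and spinal cord genes were low, so every difference between the 6 and the 18 arrays is a description and has no test. On a list of transcription factors of hindbrain and cord neurons, the highest of the 6 arrays had a mean log2 value of 5.21 and the lowest of the other 18 a mean of 5.93.

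The series followed the brains of wild-type mice and of mice with mutations in 4 genes of neuronal migration over E14, birth (P0) and postnatal day 14 (P14). At E14 there are 8 labelled groups of 3 arrays. They are the wild type of mixed background A, Lis1 ko/+, Lis1 ko/cko, 14-3-3 ko/ko, the wild type of mixed background B, Dcx ko/Y, Ndel1 ko/+ and Ndel1 ko/cko. Here ko is a null allele and cko a conditional one. The sources used here do not name the Cre line, the number of embryos behind a sample or the cuts made when the brain was taken out. The labels call the 3 arrays of a group biological replicates. The p-values rest on the spread between replicates, pooled over all 8 groups for each gene. Without a covariate, that spread takes in the split between the 6 arrays and the others in 4 of the groups.

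The embryonic brain is divided from front to back into the telencephalon, which forms cortex and basal ganglia, the diencephalon with thalamus and hypothalamus, the midbrain and the hindbrain. Each division switches on its own set of transcription factors, and Hox genes are active in the hindbrain and spinal cord and silent further forward. The meninges, fibroblast coverings of the brain, and the choroid plexus, the epithelium that secretes cerebrospinal fluid, are marked by collagens and by transthyretin.

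The targeted genes matched most of the labels, with exceptions that touch these arrays. Dcx, which encodes doublecortin, was between 4.40 and 4.87 in the 3 Dcx ko/Y arrays and between 11.59 and 12.19 in the others. Ywhae, which encodes 14-3-3 epsilon, was 9.97 in replicate 3 of 14-3-3 ko/ko, but 12.68 in replicate 1 and 12.92 in replicate 2. Replicate 2, one of the 6 arrays, also had Pafah1b1, the gene of LIS1, at 9.87 where replicates 1 and 3 had 10.28 and 10.27. The 3 Ndel1 ko/cko arrays, none of them among the 6, had Ndel1 between 9.79 and 9.87 where Ndel1 ko/+ had it between 9.43 and 9.47. The actin control for RNA quality had a 3′ minus 5′ difference of 0.13 to 0.24 in the 6 arrays and 0.11 to 0.22 in the 18. For the GAPDH control the same difference was -0.16 to 0.01 (median -0.12) against -0.20 to -0.13 (median -0.16), and 4 of the 6 arrays lay above every one of the 18. The part of RNA quality in the gene differences was not tested.

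Of the 11743 genes that passed a filter on low values, 168 were lower in the 6 arrays by at least 1 log2 unit (2-fold) with no overlap between the 6 and the 18, which is 1.43% of them. In the other direction 15 genes (0.128%) were higher by the same measure, and such genes are called lower or called higher from here on. Without the limit on size, 694 genes (5.91%) were lower with no overlap and 505 genes (4.3%) were higher, so the genes in both directions were closer in number than in size. The median difference over all genes that passed was 0.01. Of the genes called lower, 51 belong to a list of region or tissue markers and 117 to none; some, such as Pou4f1, Ebf3 and Otx2, stand in more than 1 list. Leaving out the 14-3-3 ko/ko arrays 1 and 2, which keep Ywhae, gave 173 called lower and 15 called higher, and leaving out the 3 Ndel1 ko/cko arrays gave 175 and 16.

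**Figure D1:**
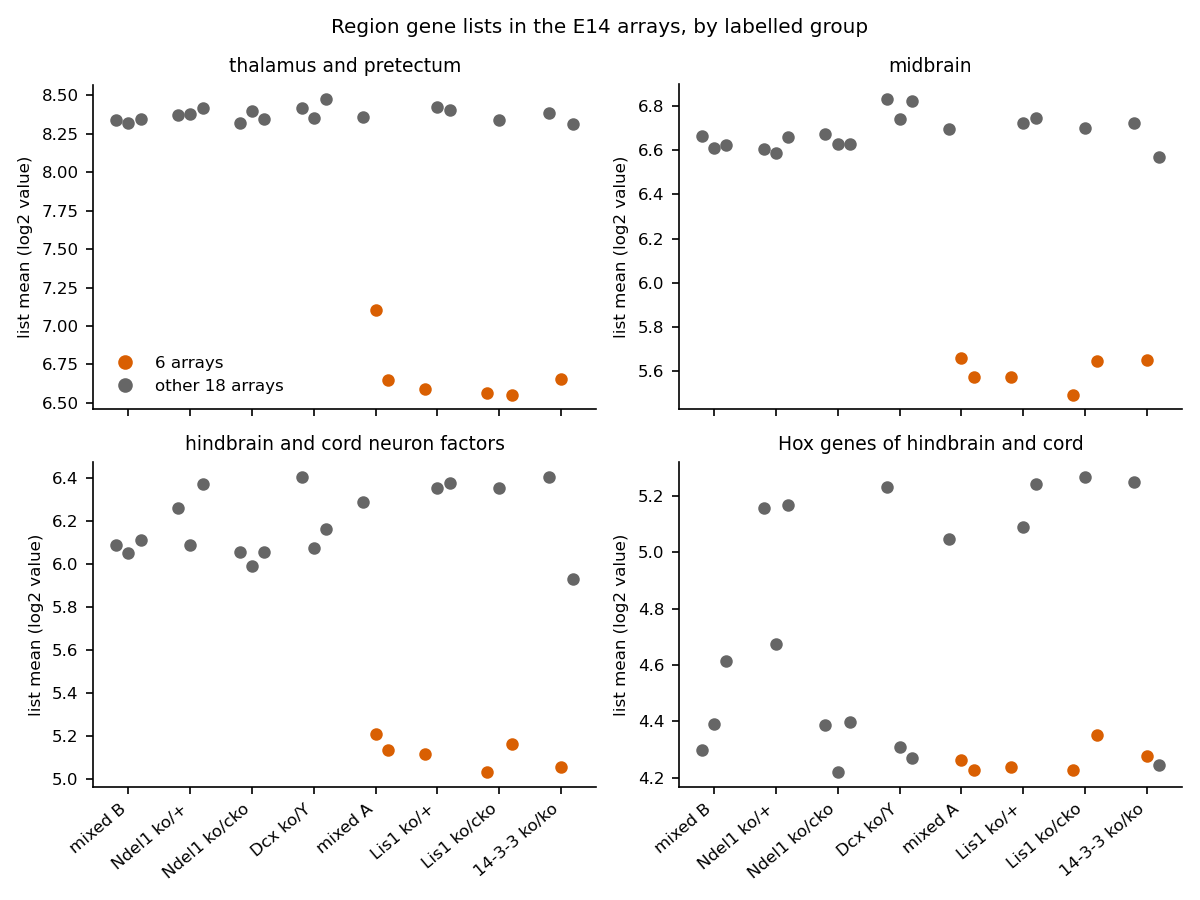
Mean log2 value of 4 region gene lists (y axis) in each of the 24 E14 arrays, set out by labelled group (x axis), with the 6 arrays in orange and the other 18 in grey. The 6 arrays lie apart from the 18 for thalamus and pretectum, midbrain, and hindbrain and cord neuron factors, while for the Hox genes some of the 18 lie as low as the 6.

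Of the gene lists, thalamus and pretectum had the largest difference of list means, at -1.69. The median of the midbrain list was -1.40 over the genes that passed, but -0.62 over all 22 measured. A gene could pass the filter through the 18 arrays alone, so medians over genes that passed lean towards genes high in the 18. Of the 20 measured genes of the thalamus and pretectum list, all of which passed the filter, 12 were called lower (1.43% over all genes) and none was called higher. The median difference of the thalamus and pretectum list was -1.30. Shox2, a homeobox factor of thalamic neurons, lay between 3.79 and 6.44 in the 6 arrays (median 4.02) and between 9.27 and 9.98 in the 18 (median 9.49), a difference of -5.17, or 36.1-fold lower. Tcf7l2, a Wnt effector that marks the developing thalamus, ranged from 5.48 to 8.16 (median 5.93) against 9.38 to 10.02 (median 9.79). In both genes replicate 2 of mixed A was the highest of the 6, at 6.44 and 8.16, while the other 5 arrays reached no more than 4.13 and 6.23. Gbx2, a homeobox gene of the thalamus, was also highest there, at 6.16, with 4.46 to 5.35 in the other 5 arrays and 6.61 to 7.76 in the 18.

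The Iroquois factors behaved more evenly among the 6 arrays. Irx3 was between 4.46 and 5.12 against 7.87 to 8.56, and Irx5 between 3.90 and 4.27 against 7.17 to 8.04. Both pattern the diencephalon, midbrain and hindbrain, and in each case the 6 arrays spanned less than 1 log2 unit. Pou4f1, a POU factor of habenula, midbrain and sensory neurons, lay between 3.84 and 4.16 in the 6 arrays and between 6.36 and 8.26 in the 18. The hypothalamus and pituitary list differed less: of its 15 genes that passed, 2 were called lower (1.43% over all genes), and the median difference of the 15 was -0.08. Its list means still did not overlap, at 5.57 to 5.73 in the 6 arrays and 5.76 to 5.98 in the 18. The called genes were Otp, a homeobox factor of neurosecretory neurons, at -1.69, and Sim1, its partner in those neurons, at -1.09. Otp was higher in both mixed A arrays (7.10 and 7.09) than in the other 4 (5.63 to 6.05), and lay between 7.77 and 8.42 in the 18. Nkx2-1, a marker of ventral hypothalamus and medial basal forebrain, overlapped, with 5.12 to 5.44 against 4.83 to 5.33. These values lie around the filter level of 5.253, so the overlap says little about the tissue.

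**Figure D2:**
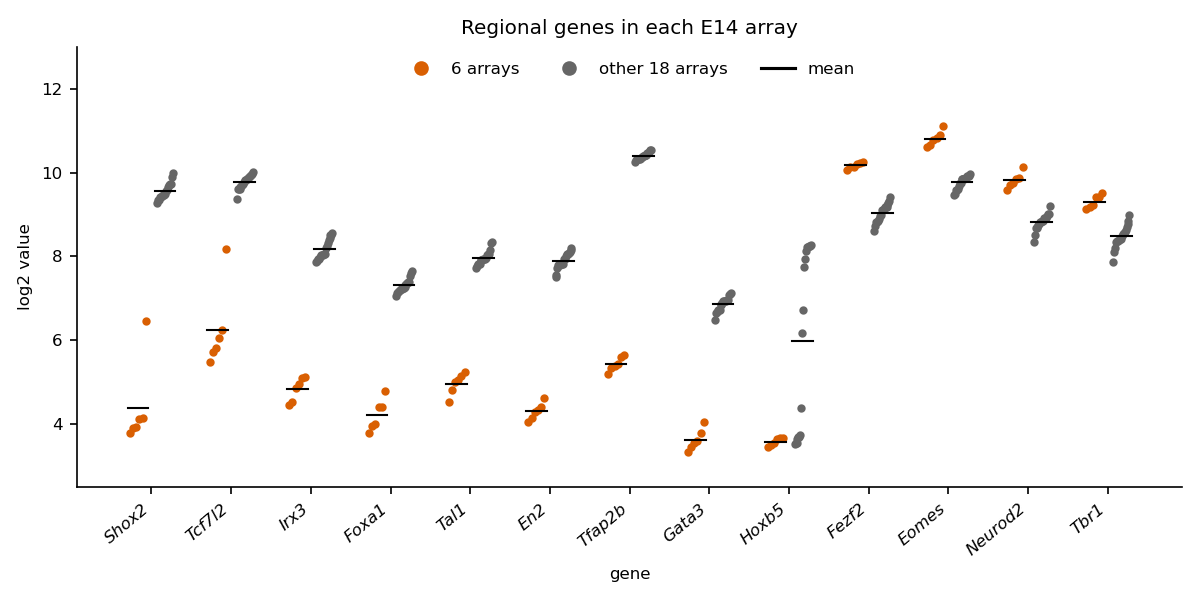
Log2 value (y axis) of 13 regional genes (x axis) in each E14 array, sorted within a set, with the 6 arrays in orange, the other 18 in grey and the mean of each set as a black line. The genes from Shox2 to Gata3 lie lower in the 6 arrays and the cortical genes from Fezf2 to Tbr1 higher, all without overlap, while Hoxb5 is as low in some of the 18 as in the 6.

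Midbrain genes were low to a similar degree. In the midbrain list, 9 of the 14 genes that passed were called lower (1.43% over all genes) and none higher. The median difference was -1.40 over these 14 genes and -0.62 over all 22 measured. Foxa1, a forkhead factor of the floor plate and of dopamine neurons, was at 3.78 to 4.78 (median 4.20) in the 6 arrays and at 7.04 to 7.65 (median 7.26) in the 18. Tal1, a factor of midbrain and hindbrain GABA neurons, was at 4.51 to 5.23 against 7.73 to 8.33. For Otx2, which specifies forebrain and midbrain and is also made by the choroid plexus, the ranges were 6.50 to 8.01 and 9.19 to 9.72. No array of the 6 reached the lowest of the 18 for any of these genes. Th, which encodes the rate-limiting enzyme of dopamine synthesis, showed a smaller gap, with 5.15 to 5.53 against 5.55 to 6.57.

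The cerebellum and rhombic lip list had 10 of 21 genes called lower (1.43% over all genes) and a median difference of -0.89. En2, a homeobox gene of the midbrain and hindbrain border and of the cerebellum, lay between 4.04 and 4.61 in the 6 arrays (median 4.30) and between 7.50 and 8.20 in the 18 (median 7.88), 12.1-fold lower. Skor1, a corepressor of dorsal hindbrain and cord neurons, lay between 4.60 and 5.88 against 7.03 to 9.11. Atoh1, the proneural factor of the rhombic lip, lay between 3.97 and 4.28 against 4.48 to 6.27. It was above the filter in none of the 6 arrays and in 9 of the 18.

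Among the hindbrain and cord neuron factors, the class that chose the arrays, 11 of 24 genes that passed were called lower (1.43% over all genes). None was called higher, and the median difference was -0.99. Tfap2b, an AP-2 factor of the dorsal midbrain, cerebellum and hindbrain, was between 5.19 and 5.64 in the 6 arrays (median 5.40) and between 10.24 and 10.53 in the 18 (median 10.40), 31.3-fold lower. Gata3, which specifies inhibitory and serotonin neurons of the brainstem, was at 3.33 to 4.04 against 6.48 to 7.12, and Irx2 at 4.56 to 4.82 against 7.51 to 8.05. These factors were tightly held in both sets, and the gap between the sets was several times the range within either. Of the transmitter list of the brainstem, 1 of 9 genes was called lower (1.43% over all genes). It was Ddc, which encodes the decarboxylase that makes dopamine and serotonin, at 4.56 to 4.80 against 7.39 to 7.87. Slc6a4, the serotonin transporter, was lower without overlap by 0.98, at 3.96 to 4.71 against 5.02 to 5.94, and Dbh, which makes noradrenaline, overlapped with a difference of -0.08.

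The Hox genes did not follow the split. Of 13 Hox genes that passed the filter, 0 were called lower and 0 were free of overlap, although their median difference was -0.97. Over all 33 measured Hox genes the median difference was -0.105. Over the 6 Hox genes with the largest differences (Hoxb5, Hoxc4, Hoxb6, Hoxd3, Hoxb3 and Hoxb2, picked after their values were seen), the mean was between 4.20 and 4.37 in the 6 arrays. In the 18 it ran from 4.14 to 7.73 with a median of 5.97, and 4 of the 18 lay at or below the highest of the 6 while 10 lay at least 1 log2 unit above it. The 4 arrays were Ndel1 ko/cko 2, Dcx ko/Y 3, mixed B 1 and 14-3-3 ko/ko 3. With Hoxb5 between 3.53 and 3.69, as low as in the 6 arrays, these 4 still had En2 between 7.73 and 8.20, Tfap2b between 10.31 and 10.53 and Shox2 between 9.27 and 9.66. Low Hox genes thus went with high En2, Tfap2b and Shox2 in these 4 arrays and with low values of the same genes in the 6. The limit at the highest of the 6 is not a gap, as Dcx ko/Y 2 lay just above it at 4.38 and mixed B 2 at 4.63. No array had high Hox genes with low En2, Tfap2b and Shox2, but the 6 were picked for low hindbrain and spinal cord genes. That absence is therefore no separate result. In the whole list of 33 measured Hox genes, 3 to 5 were above the filter in each of the 6 arrays and 3 to 16 in each of the 18.

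Sensory ganglia, which lie beside the hindbrain and cord, share many of these factors with the neural tube. In the list of sensory ganglia and Schwann cells, 7 of 24 genes were called lower (1.43% over all genes), with a median difference of -0.45 over the genes that passed. Sncg, a synuclein of peripheral and brainstem axons, was at 4.14 to 4.94 against 6.47 to 9.13, and Nefl, the light neurofilament subunit, at 8.43 to 8.96 against 10.19 to 11.46. Sox10, the defining factor of Schwann cells, overlapped, at 5.56 to 5.80 in the 6 arrays and 5.64 to 6.33 in the 18, with a difference of -0.23. In the list of neurofilaments, synapses and axon maturity, 3 of 31 genes were called lower (1.43% over all genes). There, 11 of 31 were lower with no overlap (5.91% over all genes), with a median difference of -0.34.

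The cortex moved the other way by smaller steps. In the list of cortical progenitors, 4 of 26 genes were called higher (0.128% over all genes), 15 were higher with no overlap (4.3% over all genes), and the median difference was 0.56. Fezf2, a zinc finger factor of forebrain progenitors and deep-layer neurons, was between 10.07 and 10.26 (median 10.16) in the 6 arrays and between 8.61 and 9.41 (median 9.11) in the 18, 2.18-fold higher. Eomes, the factor of intermediate progenitors, was at 10.60 to 11.12 against 9.46 to 9.96, and Emx1, which marks the dorsal telencephalon, at 8.33 to 9.03 against 7.30 to 8.02. In each of these genes the lowest of the 6 arrays was above the highest of the 18. Among cortical neuron genes 3 of 34 were called higher (Tiam2, Mpped1 and Neurod2), 11 were higher with no overlap and the median difference was 0.36. Neurod2, a bHLH factor of excitatory neurons, lay between 9.59 and 10.14 against 8.33 to 9.21, and Tbr1, a T-box factor of early cortical neurons, between 9.13 and 9.50 against 7.86 to 9.0. Celsr1, an atypical cadherin of planar polarity, had the largest difference of the genes called higher that are not predicted transcripts, 1.23, at 8.06 to 8.79 in the 6 arrays.

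Genes of dividing cells were higher in the 6 arrays as well. None of the 40 cell cycle genes that passed reached a difference of 1 log2 unit. Of the 40, 23 were higher with no overlap (4.3% over all genes), and the median difference was 0.56. Tpx2, a spindle assembly factor, was at 9.88 to 10.12 against 8.83 to 9.60, and Cenpa, the centromeric histone, at 9.79 to 10.45 against 8.92 to 9.58. All 41 measured members had a higher mean in the 6 arrays. In whole tissue a lower or higher value cannot tell fewer or more cells of a type from less or more RNA in each cell, and this holds for every list here.

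The basal ganglia gave a mixed picture. The subpallium and striatum list had a median difference of -0.01 over the 24 genes that passed and a mean of 0.06 over all measured. Of the 24, 2 were called lower (1.43% over all genes) and 4 were higher with no overlap (4.3% over all genes). Gsx2, a homeobox gene of the lateral ganglionic eminence, was between 6.39 and 7.25 in the 6 arrays and between 5.20 and 6.20 in the 18. Lhx8, a LIM factor of basal forebrain cholinergic neurons, was between 8.25 and 9.05 against 6.95 to 8.16. Against these, Penk, the precursor of enkephalins, was between 5.98 and 6.63 against 7.25 to 8.75, and Foxp2, which is expressed in striatum and thalamus, between 8.50 and 9.50 against 10.06 to 10.58. The list mean also spread among the 6 arrays, from 7.22 in Lis1 ko/cko 3 to 7.74 in mixed A 3, around the range of 7.19 to 7.59 in the 18.

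The list of hippocampus, hem and Cajal-Retzius cells, early neurons of the cortical surface, had 5 of 22 genes called lower (Ebf3, Lhx1, Ebf2, Lhx5 and Lhx9; 1.43% over all genes). The median difference was -0.45 over the genes that passed. The list means did not overlap, at 6.92 to 7.33 against 7.67 to 7.88, and of all 25 measured members 15 had a lower mean in the 6 arrays and 10 a higher one. All 5 are also expressed in the diencephalon, midbrain or hindbrain. A pair of Cajal-Retzius genes, picked after their values were seen, went against the direction of the list. Reln, the secreted signal of these cells, overlapped, with 11.22 to 11.47 in the 6 arrays, 10.59 to 11.35 in the 18 and a difference of 0.33. Trp73, a p53 relative specific to them in the cortex, was higher with no overlap, at 5.68 to 6.11 against 4.96 to 5.57.

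**Figure D3:**
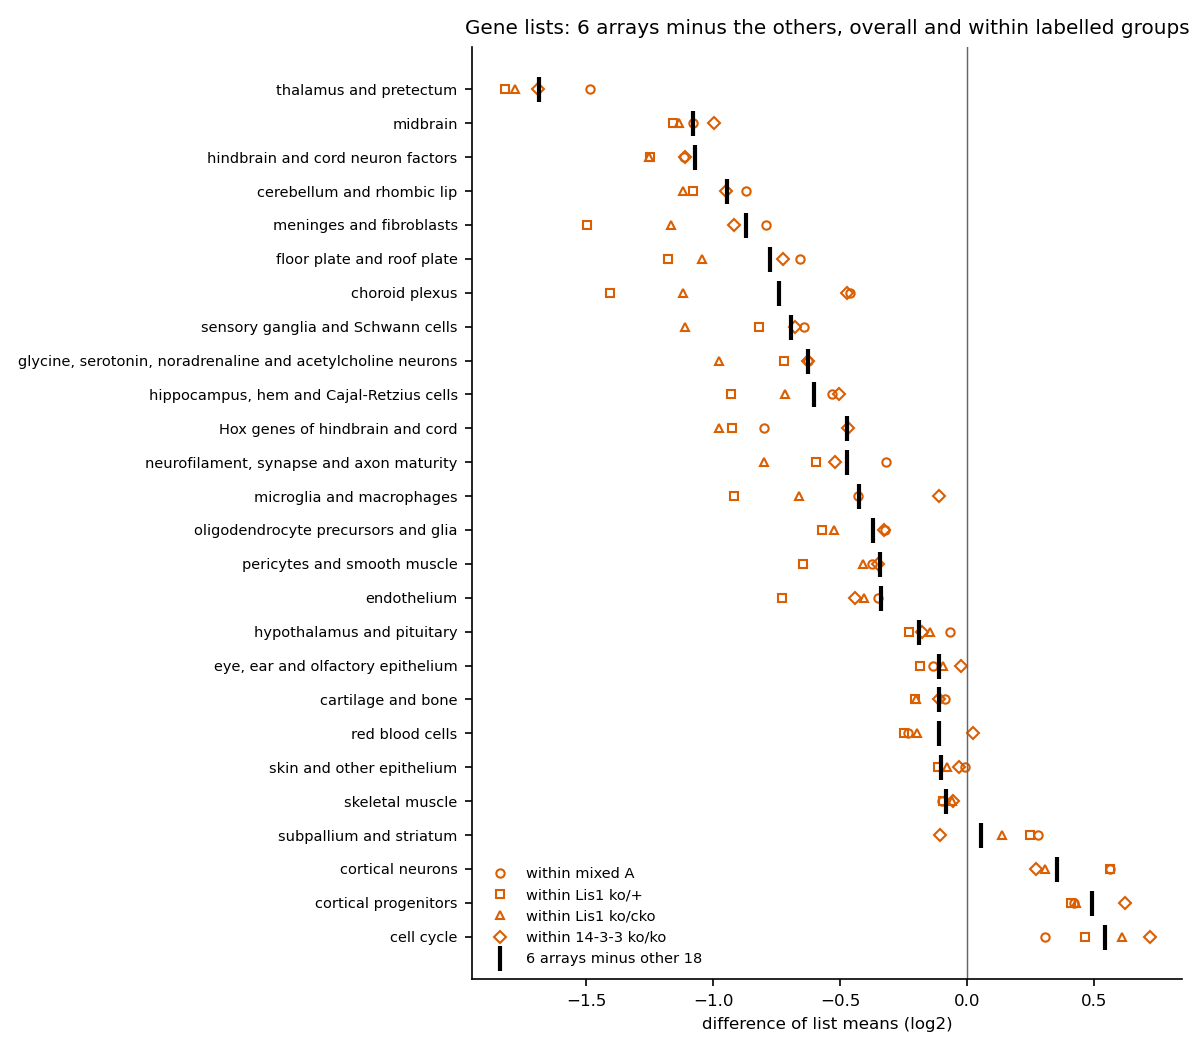
Difference of list means in log2 units (x axis) for 26 gene lists (y axis), as the 6 arrays minus the other 18 (black bars) and as low minus other arrays within each of the 4 labelled groups that hold them (open symbols). The thalamus and pretectum list is lowest at -1.69, all 4 groups lie below 0 from that list down to the eye, ear and olfactory list, and all 4 lie above 0 for cortical neurons, cortical progenitors and the cell cycle.

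The meninges set the 6 arrays apart from each other rather than from the 18. None of the 42 genes of meninges and fibroblasts that passed was called lower and 2 were lower with no overlap (5.91% over all genes), although their median difference was -1.16. The list mean was 5.38 in Lis1 ko/+ 1, 5.64 in mixed A 3, 5.67 in Lis1 ko/cko 1 and 6.11 in 14-3-3 ko/ko 2. It was 6.71 in mixed A 2 and 6.86 in Lis1 ko/cko 3, within the range of 6.67 to 7.43 of the 18. The description of the 6 arrays as poor in meninges therefore held for 4 of them. Col3a1, a fibrillar collagen, showed the same order, at 5.10 in Lis1 ko/+ 1, 7.13 in mixed A 3, 8.05 in Lis1 ko/cko 1, 9.35 in 14-3-3 ko/ko 2, 10.50 in mixed A 2 and 10.70 in Lis1 ko/cko 3, against 10.52 to 11.51. Foxc1, a forkhead factor needed to form the meninges, was at 5.16 to 5.97 in those 4 arrays and at 7.02 and 7.11 in mixed A 2 and Lis1 ko/cko 3.

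Single genes of the choroid plexus set 2 of the 6 arrays apart, while the list mean split the 6 as the meninges list did. Ttr, transthyretin, was lowest in Lis1 ko/+ 1, at 4.30, and in Lis1 ko/cko 1, at 4.0, and between 12.998 and 13.53 in the other 4, where the 18 lay between 13.08 and 13.68. Clic6, a chloride channel protein of that epithelium, was at 3.70 and 3.78 in the same arrays and at 7.02 to 8.09 in the other 4, and Kcne2, a potassium channel subunit, at 3.60 and 3.94 against 6.76 to 7.83. These 2 arrays thus stood at the low end for transthyretin, while mixed A 3, low in collagens, kept it at 12.998. By the measure used here 1 of 23 genes of the list was called lower (1.43% over all genes), Otx2. The list mean was 5.05 in Lis1 ko/cko 1, 5.09 in Lis1 ko/+ 1, 5.98 in mixed A 3 and 6.11 in 14-3-3 ko/ko 2. All 4 lay below the range of 6.34 to 6.94 of the 18, while mixed A 2 at 6.38 and Lis1 ko/cko 3 at 6.60 lay within it. Genes of the floor plate and roof plate, the midline of the neural tube, were lower with no overlap in 7 of 15 cases (5.91% over all genes). The called ones were Foxa1, Foxa2 and Spon1, a matrix protein of the floor plate, which was at 6.40 to 6.86 against 8.12 to 9.21.

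**Figure D4:**
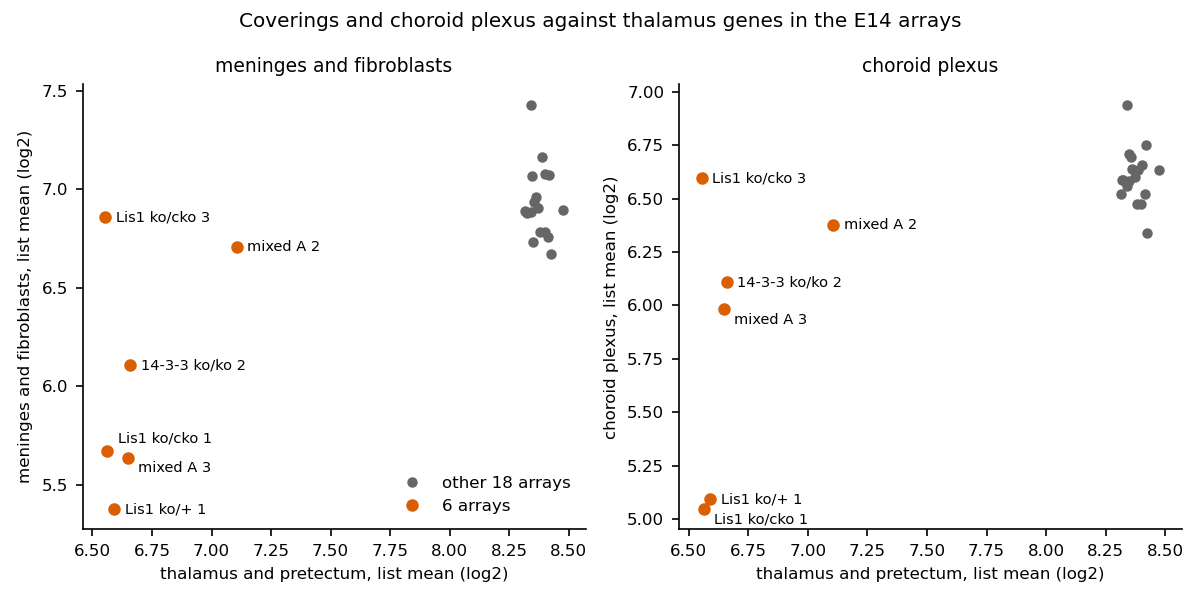
Mean log2 value of the meninges and fibroblast list (left) and of the choroid plexus list (right) on the y axes, against the thalamus and pretectum list on the x axis, with 1 point per E14 array, orange for the 6 arrays, which are named, and grey for the other 18. Lis1 ko/cko 3 and mixed A 2 are low in thalamus genes but level with the 18 in meninges genes, and Lis1 ko/+ 1 and Lis1 ko/cko 1 lie lowest for the choroid plexus.

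In genes of blood vessels and immune cells the 6 arrays again differed among themselves. The endothelium list mean was 6.33 to 6.63 in the 4 arrays low in meninges genes, and 6.99 in mixed A 2 and 7.24 in Lis1 ko/cko 3, within the range of 6.94 to 7.24 of the 18. In this list 0 of 22 genes were called in either direction and the median difference was -0.38. Cdh5, the cadherin of endothelial junctions, ran from 4.60 in Lis1 ko/+ 1 to 5.75 in Lis1 ko/cko 3, against 5.50 to 6.04. In the microglia and macrophage list, 0 of 17 genes were called and the median difference was -0.27. This list mean was low in 3 arrays, at 5.24 to 5.49 in Lis1 ko/+ 1, mixed A 3 and Lis1 ko/cko 1. It was 6.12 in 14-3-3 ko/ko 2, 6.11 in mixed A 2 and 6.58 in Lis1 ko/cko 3, within the range of 6.05 to 6.70 of the 18. F13a1 and Lyve1, genes of macrophages at the brain's borders, were at 4.20 to 5.18 and 3.41 to 3.87 in the same 3 arrays. They were at 6.81 and 5.38 in 14-3-3 ko/ko 2, at 7.85 and 6.51 in mixed A 2 and at 7.94 and 6.74 in Lis1 ko/cko 3. In the 18 the same genes were at 7.54 to 8.43 and 6.01 to 6.93. Csf1r, which microglia share, differed by -0.71 with overlap. Embryonic globins overlapped, and the red blood cell list had a median difference of -0.23 over 5 genes.

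Tissues outside the skull gave little. Only 4 of 28 skeletal muscle genes, 5 of 22 genes of skin and other epithelia and 6 of 22 of cartilage and bone passed the filter. Myog, the defining factor of muscle, was at 3.75 to 4.12 in the 6 arrays, and Krt5, a keratin of skin, at 4.71 to 5.0. The muscle list had 1 gene called lower, Pax3, which is also expressed in the dorsal neural tube, at 4.90 to 5.52 against 6.32 to 6.87. Otor was the called gene of the eye, ear and olfactory list, at 3.94 to 4.34 against 4.66 to 5.76.

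All 6 arrays came from 4 of the 8 groups, 2 of 3 arrays each in mixed A and Lis1 ko/cko and 1 of 3 each in 14-3-3 ko/ko and Lis1 ko/+. The 12 arrays of the other 4 groups (mixed B, Dcx ko/Y and both Ndel1 groups) held none. Comparing low and other arrays within each of the 4 groups, so that the label is held fixed, 290 genes were lower (2.47%) and 24 higher (0.204%) by at least 1 log2 unit on average, with no overlap in any group. In 14-3-3 ko/ko the label does not fix the level of Ywhae, and without its arrays 1 and 2, which leaves 3 groups, 317 genes were lower and 34 higher. Of the 168 genes called lower over all arrays, 164 were among these 290, which is 97.6% of the first set and 56.6% of the second. A gene free of overlap over all arrays is also free of it within each group, so only the size limit could fail. The share of 97.6% was thus nearly fixed in advance and is not separate evidence. Shox2 differed by -5.34 within groups (SD 0.52 over 4 groups), Tfap2b by -4.99 (SD 0.12) and En2 by -3.61 (SD 0.18). Hoxb5, which overlapped over all arrays, differed by -4.05 within groups (SD 1.12), and Col3a1 by -3.04 (SD 1.91). By group, Hoxb5 differed by -4.78 in Lis1 ko/cko, -4.57 in Lis1 ko/+ and -4.48 in mixed A, but by -2.38 in 14-3-3 ko/ko. There the low array 2, at 3.53, was level with array 3, at 3.54, and only array 1 was high, at 8.28.

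The region lists spread less at the later ages. The midbrain list spanned 1.34 log2 units over the 24 arrays at E14, 0.36 over 30 arrays at P0 and 0.27 over 24 arrays at P14. For the Hox list the spans were 1.05, 0.21 and 0.42. The median of the midbrain list fell from 6.63 at E14 to 5.01 at P0 and 4.83 at P14, below the filter level of 5.253. For the Hox list the medians were 4.39, 4.11 and 4.38. Lists near the low end of the arrays can span little, so these spans do not show that the later brains were alike in region content. The thalamus and pretectum list spanned 1.92 at E14, 1.22 at P0 and 0.22 at P14, and at P0 its highest array was at 7.08 where the median was 6.01.

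Because the labelled groups hold 2, 1 or 0 of these arrays, 3 comparisons of groups were tested with limma over all 24 arrays; they share arrays with each other and are not independent. Between the wild types, mixed A with 2 of the arrays and mixed B with 0, 8 of 11743 genes were called at adjusted p under 0.05 (0.0681%), and 1866 had an unadjusted p under 0.05. The 168 genes lower in the 6 arrays had a median difference of -0.77 between the wild types, beside 0.03 over all genes, but none of them was called. These 168 genes were picked on the same arrays. In all 3 comparisons their median therefore follows largely from how many of the 6 arrays each group holds, and it is not a separate result. Rmst, a long noncoding RNA of neural progenitors, was called at -2.45 ± 0.44 (SE, limma adjusted p = 0.0403), and Glo1, a glyoxalase, at 0.81 ± 0.14 (limma adjusted p = 0.0403). With membership of the 6 arrays as a covariate 5 genes were called (0.0426%), 4 of them shared with the first fit, and without mixed A 1, the only mixed A array that is not low, 46 genes were called. Without mixed A 2 or 3 the counts were 4 and 3, and without mixed B 1, 2 or 3 they were 2, 3 and 1.

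Lis1 ko/cko and mixed A each hold 2 of the 6 arrays, and between them the 168 genes had a median difference of 0.00. Limma called 0 of 11743 genes (0%), with 1770 at an unadjusted p under 0.05. Pafah1b1 itself, at a mean of 9.84 in Lis1 ko/cko and 10.38 in mixed A, differed by -0.54 ± 0.10 (SE, n = 3 and 3) and missed the threshold at a limma adjusted p of 0.0864. With membership as a covariate the difference was the same, its SE was 0.09 and the limma adjusted p was 0.0335, and 6 genes were called (0.0511%): Pafah1b1, Gxylt1, Ifngr2, Nfat5, Zfhx3 and Zfp33b. For Zfhx3, a homeobox factor of differentiating neurons, the SE went from 0.39 to 0.09 at the same difference of -0.51. The covariate was chosen on the values it is fitted to, so these calls are not independent evidence. Without Lis1 ko/cko 1, which leaves low arrays at 1 of 2 and 2 of 3, 1481 genes were called. Without Lis1 ko/cko 3, which leaves the same balance of low arrays, 0 genes were called. The counts were 2 without mixed A 1, 1 without mixed A 2, and 0 without Lis1 ko/cko 2 or mixed A 3. The cause of this spread was not tested.

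Against mixed B, which holds none of the 6 arrays, Lis1 ko/cko had 207 genes called (1.76%), 174 of them higher. The 168 genes again had a median difference of -0.77, and none of them was among the 207. With membership as a covariate 393 genes were called (3.35%), 108 of them in the first fit too. Pafah1b1 was called in both, at -0.58 ± 0.10 (limma adjusted p = 0.0124) and -0.48 ± 0.10 (limma adjusted p = 0.0172). The count rested on single arrays: it was 1474 without Lis1 ko/cko 1, 1964 without Lis1 ko/cko 2, 9 without Lis1 ko/cko 3, and 7, 2 and 3 without mixed B 1, 2 and 3.

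**Figure D5:**
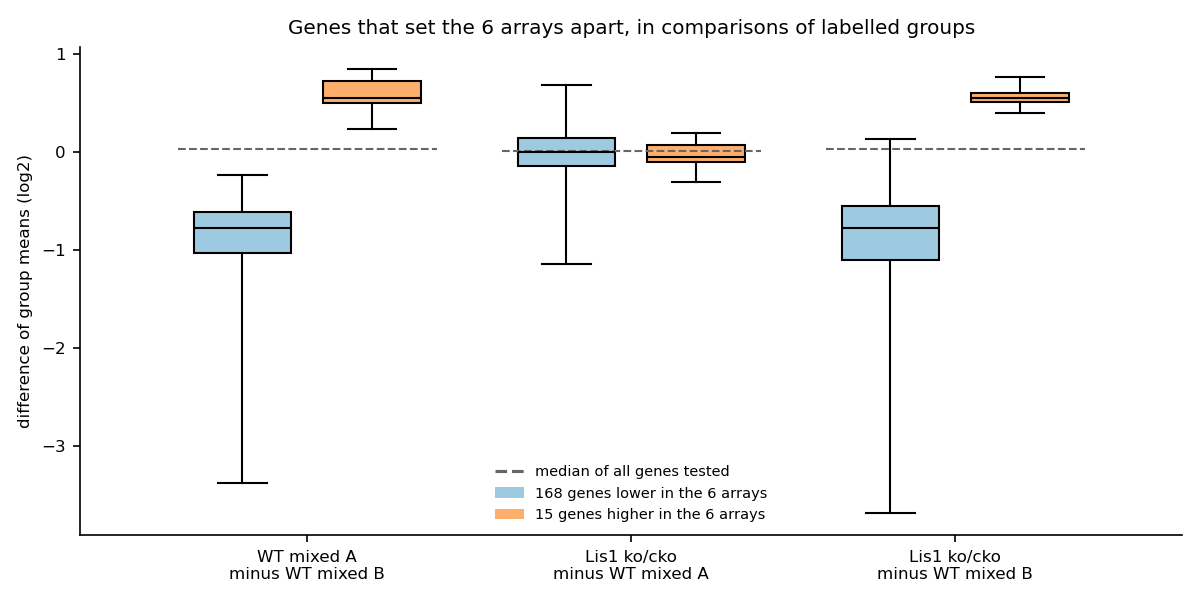
Difference of group means in log2 units (y axis) in 3 comparisons of labelled groups (x axis) for the 168 genes lower in the 6 arrays (blue) and the 15 higher (orange); boxes span the quartiles with the median as a line, whiskers reach the lowest and highest gene, and the dashed line is the median of all genes tested. The 168 genes have a median of -0.77 in both comparisons with mixed B and 0.00 between Lis1 ko/cko and mixed A. Both sets of genes were picked on these same arrays, so the medians follow largely from how many of the 6 arrays each group holds.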

How the data were processed

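RNA of 78 mouse brain samples was extracted with Trizol and labelled by in vitro transcription, 1 Affymetrix array each, per the labels. The log2 values deposited by the authors were used as given; per the submitters' processing notes they come from RMA, with the version not given in the sources used here. They run from 2.61 to 14.2, and the number of arrays limits the precision. Of 45101 probe sets, 34945 name 1 gene in GEO's platform annotation, 932 several and 9160 none here, and 64 are controls; only those with 1 gene were used, by the symbol of that table. Each of 18193 genes was read from its probe set of highest mean over the 78 arrays, and passed at a highest E14 group mean of 5.253, the median of all values.

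The 6 arrays and the gene lists were chosen with earlier results of these data known. The text names the largest called genes, up to 6 members of each of 27 lists, defining markers, Hox genes, the targeted genes and the largest calls of each group comparison. Th, Reln and the calls made only with the covariate were added after their values were seen. Labelled groups were compared with limma 3.58.1 in R 4.3.3, with 1 mean per group over the 24 E14 arrays, a variance trend and Benjamini-Hochberg adjustment. On simulated data for Lis1 ko/cko against mixed A, with 200 of 11743 genes changed, 64.7% of 1.5-fold and 89.7% of 2-fold changes were found. The simulated noise was independent between genes and arrays and lacked the split of the 6 arrays, so these shares need not hold for the real arrays. Alternatives were no filter, a filter at the 75th percentile (7.627), every probe set, the probe set highest at E14 and quantile normalization. Further ones were other sets of arrays, membership of the 6 arrays as a covariate, a replicate block and leaving out single arrays. The arrays left out were the 6 for the description and those of the groups compared for limma. A run without the 14-3-3 ko/ko arrays that keep Ywhae was chosen after seeing the data.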

Additional observations from a re-analysis of the deposited data

Results flagged for a closer look

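Of 105 list means and genes looked at over the 6 arrays, 10 had 1 array far from the other 5, with a gap beyond Dixon's limit for 6 values; chance alone gives such a gap in about 1 of 20 sets. Mixed A 2 stood apart for thalamus genes: its list mean was 7.11 where the others were 6.55 to 6.66, Shox2 was at 6.44 beside 3.79 to 4.13, and Tcf7l2 at 8.16 beside 5.48 to 6.23. The same array stood apart for Rmst, at 7.32 beside 4.34 to 4.69. Lis1 ko/cko 3 stood apart in 4 cases. Its mean of skeletal muscle genes was 4.43 beside 4.29 to 4.33, a level at which few of those genes passed the filter. Dcx was at 11.59 beside 11.97 to 12.13, Foxp2 at 8.50 beside 9.23 to 9.50, and Emx1 at 9.03 beside 8.33 to 8.55. Mixed A 3 stood apart for Hoxb2, at 5.25 beside 4.97 to 5.06, and for Otor, at 4.34 beside 3.94 to 4.07.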

How the results depend on the processing

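Of 85 genes recomputed, 45 were called in the 6 arrays, and 0 of these 45 changed direction under the 14 or 15 alternatives that gave each a value. A gene with no overlap keeps its direction in any subset of these arrays, and the filter does not alter its value. Only the runs with other probe sets or quantile normalization could have changed a direction, so the 0 was largely fixed in advance. Of the lists, the mean difference of subpallium and striatum was -0.08 with the stricter filter and -0.12 with every probe set, that of skin and other epithelium 0.02 with every probe set, and that of eye, ear and olfactory epithelium 0.35 with the stricter filter, each of the other sign than in the report or its plot. The counts of genes called lower moved by over 1.5 times with the stricter filter (92 of 168) and with every probe set (264), and within groups with the stricter filter (144 lower) and every probe set (43 higher). Leaving out each of the 6 arrays in turn gave 157 to 189 genes lower and 10 to 21 higher, and within groups 260 to 318 lower and 19 to 34 higher. The 18 other arrays were not left out singly for these counts. The limma counts were less stable. Mixed A against mixed B gave 13 genes with no filter, 1 with the stricter filter, 14 with every probe set, 2 after quantile normalization, 5 with the covariate, 14 without the 6 arrays and 1 to 46 without single arrays. Lis1 ko/cko against mixed A gave 6 with the covariate, 951 without the 6 arrays, where each group has 1 array that is assumed to vary like the other groups, and 0 to 1481 without single arrays. Lis1 ko/cko against mixed B gave 68 with no filter, 67 after quantile normalization, 393 with the covariate, 1940 without the 6 arrays and 2 to 1964 without single arrays. With a replicate block the 3 comparisons gave 5, 0 and 66 genes. The causes of these changes in the counts were not tested. Deviations of same-numbered arrays from their group means correlated between -0.58 and 0.06. Those deviations also carry the split of the 6 arrays, so they cannot show whether the replicate numbers pair the samples. Values near the low end of the arrays, as for Hox genes and Ttr in the lowest arrays, understate differences.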
